A study of Homo sapiens with 3 samples.

Results

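FFAR1, GLP1R, CYSLTR2, ADRA2A, CASR and PTGER3 are 6 of the 33538 genes in each deposited count matrix, taken by symbol. They encode G protein-coupled receptors through which islet cells sense nutrients, incretins, lipid mediators, calcium and sympathetic tone. In the islet, receptors coupled to Gq raise cytosolic calcium, receptors coupled to Gs raise cyclic AMP, and both potentiate glucose-stimulated insulin release. Receptors coupled to Gi lower cyclic AMP and restrain it. All 6 are protein-coding genes of GENCODE 29 on GRCh38. Their RNA was read in beta cell differentiations of H1, a widely used line of human embryonic stem cells, in which PAX6, a homeodomain and paired-domain transcription factor of the islet, eye and brain, was edited.

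The KO library was PAX6-/-, the HET library PAX6+/- and the WT library wild type, with 1 droplet library per genotype. The sources used here do not give the position of the edit, the number of clones or the day of differentiation. Genotype and library cannot be told apart, so no difference between genotypes has a replicate check, no p-value is given, and every interval covers counting error only, at 95%. The KO, HET and WT libraries held 9726, 9628 and 9667 barcodes with 145948590, 136834433 and 140068492 UMIs, and 26 to 43 barcodes were shared between any pair. PAX6 RNA itself was 272 CPM in KO, 227 CPM in HET and 307 CPM in WT among cells rich in CHGA, so the RNA level does not check the genotype labels.

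Cells with at least 10 UMIs of CHGA, the granule protein chromogranin A, per 10000 UMIs were called CHGA-high. They were 1122 of 8785 kept cells in KO (12.8%), 638 of 8468 in HET (7.53%) and 1649 of 8662 in WT (19.0%). All 9 endocrine markers were at least 2-fold above CHGA-low cells (under 1 per 10000) in each library. CHGA is among these markers, and its difference was fixed by how the groups were made. The samples are labelled as beta cells, although most cells were CHGA-low. The median CHGA-high cell had 12709.5, 13363 and 13427 UMIs in KO, HET and WT, with 8.98%, 8.41% and 6.42% of UMIs from mitochondrial genes. Summed beta cell markers stood at 1825, 6966 and 8534 CPM, with 1 of 7, G6PC2, at 0 in KO. Markers of mesenchyme summed to 14.0 CPM in KO, 47.9 CPM in HET and 10.0 CPM in WT, against 13.7, 77.4 and 8.38 CPM in CHGA-low cells of the same libraries. The part of these differences in the receptor levels was not tested.

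CHGA-high cells were placed in 8 exclusive classes by which of INS, GCG, SST and GHRL (insulin, glucagon, somatostatin and ghrelin) reached 20 UMIs per 10000. The class with INS and GCG together held 29 KO, 114 HET and 382 WT cells, and the class with INS alone 133, 122 and 312. The class with GHRL alone held 141, 50 and 27 cells. Cells with none of the 4 hormones but at least 5 UMIs per 10000 of TPH1, the rate-limiting enzyme of serotonin synthesis outside the brain, formed the TPH1 class of 192, 38 and 76 cells. The hormone-negative class, without any of these, held 543, 233 and 590 cells. GCG alone (9, 16 and 79 cells), SST alone (8, 5 and 21) and other combinations (67, 60 and 162) made up the rest.

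FFAR1, CYSLTR2 and CASR were the members at least 2-fold lower in KO than in both WT and HET in CHGA-high cells. Their promoters are shown for that reason. Between HET and WT, only FFAR1 was past 2-fold. Each line holds the 250 bases upstream of the RefSeq transcription start on GRCh38.p14, plus strand, with capitals for TAAT or its reverse complement ATTA, the core that homeodomains read, and for the E-box CANNTG. The FFAR1 window is chr19:35347652-35347901, the CYSLTR2 window chr13:48653679-48653928 and the CASR window chr3:122183418-122183667.
FFAR1: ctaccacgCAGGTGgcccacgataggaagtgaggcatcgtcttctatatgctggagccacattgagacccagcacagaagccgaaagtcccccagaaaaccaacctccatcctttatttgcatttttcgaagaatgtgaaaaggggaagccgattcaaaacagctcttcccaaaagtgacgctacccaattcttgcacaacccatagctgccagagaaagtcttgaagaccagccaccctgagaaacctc
CYSLTR2: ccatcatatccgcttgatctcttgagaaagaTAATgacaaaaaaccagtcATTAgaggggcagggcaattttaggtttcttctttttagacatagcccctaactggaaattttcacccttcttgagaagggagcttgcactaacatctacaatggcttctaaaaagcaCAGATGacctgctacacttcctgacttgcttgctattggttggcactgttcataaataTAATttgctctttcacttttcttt
CASR: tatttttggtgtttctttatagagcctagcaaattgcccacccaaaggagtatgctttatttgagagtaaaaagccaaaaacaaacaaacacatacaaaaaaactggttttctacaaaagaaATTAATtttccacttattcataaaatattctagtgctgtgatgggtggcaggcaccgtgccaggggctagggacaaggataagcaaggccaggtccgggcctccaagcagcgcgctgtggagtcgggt

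The CYSLTR2 window held 3 TAAT or ATTA words and 1 E-box, the CASR window 2 overlapping TAAT and ATTA words and no E-box, and the FFAR1 window 1 E-box and no TAAT. Counting both strands, 47.4% of 35116 RefSeq promoter windows of the same length held TAAT and 61.8% held an E-box. TTCACGC, a stretch of the paired-domain consensus, was in 1.1% of windows and in none of the 5 member windows found. The RefSeq start of FFAR1 minus its GENCODE start is -3650 bases, so its window does not adjoin the GENCODE gene. For CYSLTR2 the offset is 218 bases, so most of its window lies inside the GENCODE gene. The ADRA2A window (chr10:111076779-111077028) held 1 E-box and the GLP1R window (chr6:39048531-39048780) neither word. PTGER3 had no entry in the RefSeq promoter table.

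Between KO and WT, 3 of the 6 receptors were at least 2-fold lower in CHGA-high cells and none was 2-fold higher. All 6 passed the level filter of 5 CPM in either library, where CPM scales counts to a common library total, with TMM factors. Of 12002 genes passing that filter, 4.53% were at least 2-fold lower and 2.19% at least 2-fold higher in KO. The median log2 ratio was -2.28 over the 6 members and -0.02 over all genes tested. With plain CPM the median of all genes moved to 0.11, and lower genes made up 52.2% of those past 2-fold in place of 67.4%, while the same count of 3 members was lower.

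FFAR1 (chromosome 19, 35351552 to 35353862, plus strand), the Gq-coupled receptor for long-chain fatty acids, had 3 counts in KO, 274 in HET and 1526 in WT. These are 0.180 CPM (0.0371 to 0.526) in KO, 26.5 CPM (23.5 to 29.9) in HET and 62.0 CPM (58.9 to 65.2) in WT. The 3 libraries do not overlap in their counting intervals, with KO near the detection floor and HET between KO and WT. The level was 344-fold lower in KO than in WT (118 to 1671) and 147-fold lower in KO than in HET (49.9 to 719). HET was 2.34-fold lower than WT (2.05 to 2.67), the 1 member of 6 past 2-fold in that comparison, where 2.06% of 11964 genes were 2-fold lower and 1.2% 2-fold higher.

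FFAR1 was most abundant in the INS with GCG class of HET and WT. That class had 0 counts in its 29 KO cells, 74.8 CPM in HET (147 counts) and 128 CPM in WT (762 counts). The KO class was at least 19.9-fold lower than WT, taking 3 counts over the class as the floor. In the INS class FFAR1 was 1.07 CPM in KO (2 counts), 30.2 CPM in HET and 75.1 CPM in WT. KO was 70.4-fold lower than WT there (19.3 to 583) and HET 2.48-fold lower (1.90 to 3.29). The median INS content of those cells also differed, at 51.8, 78.8 and 94.6 UMIs per 10000 in KO, HET and WT, and its part in the result was not tested.

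FFAR1 was sparse in the hormone-negative, TPH1 and GHRL classes. The hormone-negative class had 0.122 CPM in KO (1 count), 4.43 CPM in HET and 9.98 CPM in WT, and the TPH1 class had 0, 0 and 1 count. The GHRL class had 0, 1 and 2 counts. The GCG class had 0 counts in 9 KO cells, 13.4 CPM in HET (3.64 to 34.3) and 75.2 CPM in WT (59.8 to 93.3), the last close to the WT INS class at 75.1 CPM. With the 6 classes of at least 20 cells weighing the same, FFAR1 was 261-fold lower in KO than in WT, but HET was 1.90-fold lower than WT and no longer past 2-fold.

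CYSLTR2 (chromosome 13, 48653711 to 48711226, plus strand), a receptor for cysteinyl leukotrienes, had 48 counts in KO, 367 in HET and 1077 in WT. Its level was 2.88 CPM in KO, 35.5 CPM in HET and 43.7 CPM in WT. KO was 15.2-fold lower than WT (11.4 to 20.7) and 12.3-fold lower than HET (9.11 to 17.0), while HET was within 2-fold of WT (1.23-fold lower, 1.09 to 1.39). With classes weighing the same, HET was 1.22-fold higher than WT, and KO 9.26-fold lower than WT.

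Cells with INS and GCG had 0 counts of CYSLTR2 in KO, 96.2 CPM (83.0 to 111) in HET and 102 CPM (94.4 to 111) in WT. KO was at least 15.9-fold lower than WT. In the INS class the order differed. The level there was 1.07 CPM in KO (2 counts), 7.56 CPM in HET and 37.0 CPM in WT, so that HET was 4.90-fold lower than WT (2.94 to 8.75). HET cells with other hormone combinations held 135 CPM (111 to 163), against 68.9 CPM (58.7 to 80.4) in WT. Of the 108 HET counts in that class, 77 came from 28 cells with INS, GCG and SST together.

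The CYSLTR2 RNA that remained in KO lay mostly in ghrelin cells. Of its 48 counts in KO, 26 came from the GHRL class and 9 from other combinations. All 9 of these came from cells that contained GHRL, which were 63 of the 67 KO cells with other combinations. The GHRL class stood at 12.3 CPM in KO (8.004 to 17.95), 27.0 CPM in HET (17.3 to 40.2) and 7.29 CPM in WT, the last from 3 counts. KO was 2.21-fold lower than HET in that class (1.21 to 3.997), and the ratio of KO to WT, 1.68, had an interval of 0.515 to 8.68. Within KO the GHRL class was 10.1-fold above the hormone-negative class (4.69 to 23.4).

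CASR (chromosome 3, 122183683 to 122291629, plus strand), the calcium-sensing receptor, had 29 counts in KO, 193 in HET and 595 in WT. Its level was 1.74 CPM in KO, 18.7 CPM in HET and 24.2 CPM in WT. KO was 13.9-fold lower than WT (9.57 to 20.9) and 10.7-fold lower than HET (7.24 to 16.5), and HET was 1.29-fold lower than WT (1.10 to 1.53). The INS with GCG class had 0 counts in KO, 50.4 CPM in HET and 54.8 CPM in WT, the highest class in HET and WT, and KO was at least 8.51-fold lower than WT. The INS class had 4.80 CPM in KO (9 counts, in 2 cells), 17.0 CPM in HET and 18.4 CPM in WT. The GHRL class held no CASR count in any library, which allows up to 1.41 CPM in KO, 3.38 CPM in HET and 7.29 CPM in WT.

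CASR was not confined to endocrine cells. CHGA-low cells, which were 58.8%, 69.4% and 50.7% of kept cells in KO, HET and WT, held 63.9%, 53.8% and 39.5% of its UMIs. Their level was 3.02 CPM in KO, 4.27 CPM in HET and 8.97 CPM in WT, 2.97-fold lower in KO than in WT (2.57 to 3.43) and 2.10-fold lower in HET (1.86 to 2.38). In KO the CHGA-high level of 1.74 CPM was thus under that of CHGA-low cells. PTH and GCM2, markers of the parathyroid, where CASR sets hormone release, were at 0 in CHGA-high cells of KO and HET and summed to 0.0406 CPM in WT.

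**Figure D1:**
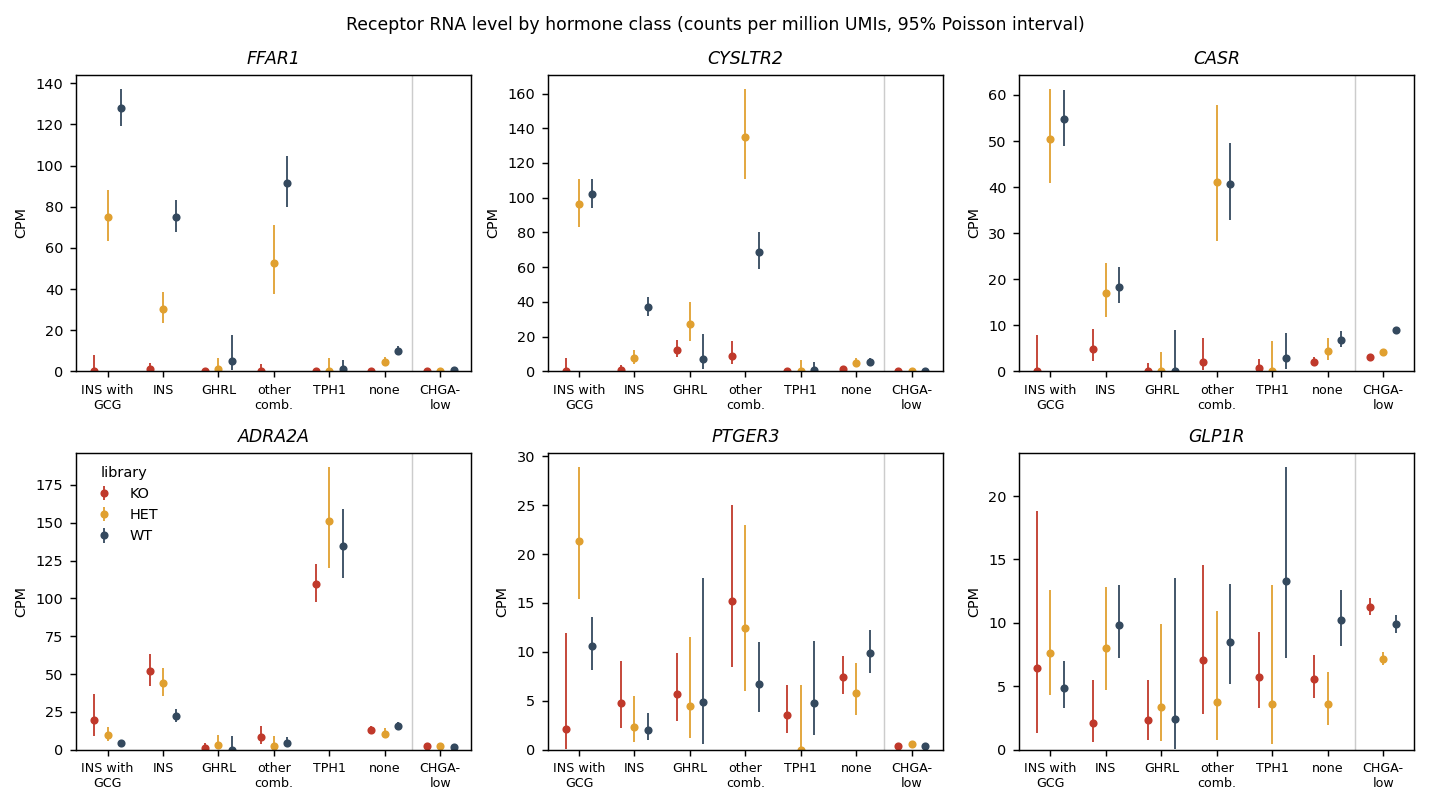
Level of each receptor in CPM on the vertical axes, by hormone class and in CHGA-low cells, right of the grey line, with 1 point per library (KO, HET, WT) and 95% Poisson counting intervals. FFAR1, CYSLTR2 and CASR are high in INS with GCG cells of HET and WT and have no counts in the KO class, while ADRA2A peaks in the TPH1 class at 109.5, 150.9 and 134.8 CPM; the classes with GCG or SST alone are not drawn.

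ADRA2A (chromosome 10, 111077163 to 111080907, plus strand), the Gi-coupled alpha-2A adrenoceptor that restrains insulin release, had 535 counts in KO, 239 in HET and 458 in WT. Its level was 32.1 CPM in KO (29.4 to 34.9), 23.1 CPM in HET (20.3 to 26.3) and 18.6 CPM in WT (16.9 to 20.4). KO was 1.73-fold higher than WT (1.52 to 1.96), under 2-fold, and HET 1.24-fold higher (1.06 to 1.46). The level was highest in the TPH1 class in every library, at 109.5 CPM in KO, 150.9 CPM in HET and 134.8 CPM in WT, and KO was 1.23-fold lower than WT within that class (1.00 to 1.51). The class held 57.2% of the ADRA2A UMIs of CHGA-high cells in KO, 35.1% in HET and 31.0% in WT, and the INS class held 18.1%, 38.9% and 24.0%. With classes weighing the same, KO was 1.12-fold higher than WT. The TPH1 class made up 17.1% of CHGA-high cells in KO, 5.96% in HET and 4.61% in WT.

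In the INS class ADRA2A was 51.7 CPM in KO, 43.9 CPM in HET and 22.5 CPM in WT, 2.30-fold higher in KO than in WT (1.73 to 3.05). In cells of 3000 UMIs or more with up to 10% mitochondrial UMIs, ADRA2A in the INS class was 23.3 CPM in KO, 41.1 CPM in HET and 19.1 CPM in WT. TPH1-positive cells made up 33.1% of that class in KO, 10.7% in HET and 4.81% in WT. Without these cells, an alternative chosen after seeing the data, the INS class held 3.35 CPM in KO (4 counts), 21.4 CPM in HET and 11.2 CPM in WT, and KO was 3.35-fold lower than WT (1.23 to 12.8). The direction in INS cells therefore turned on whether cells with TPH1 were counted among them. HET remained higher than WT, by 1.91-fold (1.22 to 2.95).

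PTGER3 (chromosome 1, 70852353 to 71047808, minus strand), the Gi-coupled EP3 receptor for prostaglandin E2, had 109 counts in KO, 85 in HET and 203 in WT. Its level was 6.54, 8.23 and 8.24 CPM in KO, HET and WT. None of the pairs was 2-fold apart, and KO was 1.26-fold lower than WT with an interval of 0.994 to 1.61. The antisense gene AL031429.1 overlaps PTGER3 and had 0 counts in CHGA-high cells of all libraries, and AL031429.2, an intronic gene on the same strand that could share its reads, was not analysed here. In HET the INS with GCG class held 21.4 CPM, against 10.6 CPM in WT, a 2.02-fold difference (1.33 to 3.03). In WT the GCG class stood at 19.3 CPM (11.9 to 29.4) and the INS class at 2.05 CPM (0.981 to 3.76), and these intervals do not overlap.

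GLP1R (chromosome 6, 39048798 to 39087743, plus strand), the Gs-coupled receptor for the incretin GLP-1, had 81 counts in KO, 56 in HET and 203 in WT. Its level was 4.86 CPM in KO, 5.42 CPM in HET and 8.24 CPM in WT. KO was 1.70-fold lower than WT (1.31 to 2.22) and HET 1.52-fold lower (1.13 to 2.08). With the cells of the top 8% of doublet scores removed, KO stood at a log2 ratio of -1.13 against WT, past 2-fold. No hormone class was the highest in every library. Against the hormone-negative class, INS with GCG cells stood at 0.477 times in WT (0.302 to 0.733). The ratio was 2.12 times in HET (0.943 to 4.85) and 1.15 times in KO (0.228 to 3.57). The WT GCG class stood at 0.269 times (0.0545 to 0.813) on 3 counts. The INS class stood at 2.23 times in HET (1.02 to 5.00), 0.961 times in WT and 0.381 times in KO. The INS class held 2.13 CPM in KO, 8.03 CPM in HET and 9.82 CPM in WT, and KO was 4.602-fold lower than WT on 4 counts (1.69 to 17.6).

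Most GLP1R RNA lay outside CHGA-high cells. CHGA-low cells held 65.9% of its UMIs in KO, 71.8% in HET and 53.3% in WT, at 11.3, 7.17 and 9.89 CPM. CHGA-low cells were 58.8%, 69.4% and 50.7% of kept cells in KO, HET and WT. A gene spread evenly over cells would give shares of that order. In KO the CHGA-low level was above the CHGA-high level. The intervals overlap in HET (4.09 to 7.04 CPM in CHGA-high, 6.65 to 7.71 CPM in CHGA-low) and in WT (7.15 to 9.46 CPM in CHGA-high, 9.17 to 10.7 CPM in CHGA-low).

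**Figure D2:**
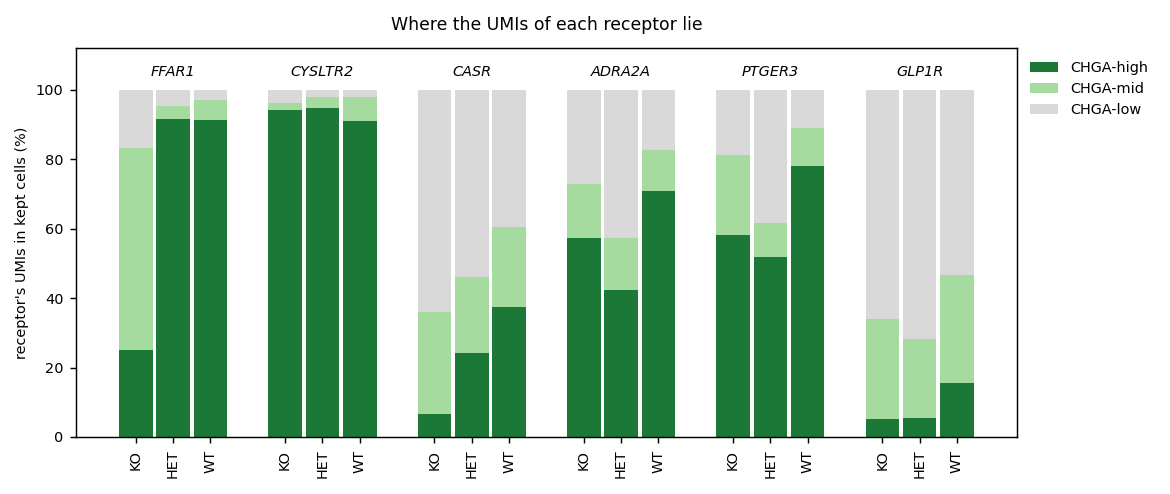
Share of each receptor's UMIs (vertical axis, percent of its UMIs in kept cells) in CHGA-high, intermediate and CHGA-low cells, 1 bar per library in the order KO, HET, WT. CYSLTR2 lies almost wholly in CHGA-high cells (94.1%, 94.6% and 90.9%), and the KO bar of FFAR1 rests on 3, 7 and 2 UMIs. GLP1R lies mostly in CHGA-low cells, which were themselves 58.8%, 69.4% and 50.7% of kept cells.

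After each cell was thinned to 5000 UMIs, 0.101% of KO, 11.3% of HET and 24.2% of WT CHGA-high cells had an FFAR1 UMI (0.267%, 22.3% and 37.8% without thinning). Thinning left out 131, 30 and 138 shallower CHGA-high cells. In CHGA-low cells the FFAR1 share was 0% in KO, which allows up to 0.0591%, 0.0521% in HET and 0.374% in WT, at median depths of 16226, 14515 and 15153 UMIs. For CYSLTR2 the shares were 1.41% in KO, 10.7% in HET and 11.4% in WT, against 0.0197%, 0.0347% and 0.140% in CHGA-low cells. Both receptors were thus above background in HET and WT, and CYSLTR2 also in KO. The few counts in CHGA-low cells had the same order, with FFAR1 at 2, 14 and 51 counts and CYSLTR2 at 2, 8 and 26 counts in KO, HET and WT.

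CASR was found in 0.504% of KO, 6.74% of HET and 6.75% of WT CHGA-high cells, against 1.38%, 2.33% and 3.95% of CHGA-low cells. The KO share was under that of CHGA-low cells. GLP1R was found in 2.02%, 1.97% and 3.18% of CHGA-high cells, against 5.43%, 3.73% and 4.56% of CHGA-low cells, so its share in CHGA-high cells was not above that of CHGA-low cells in any library. CHGA-low cells carry CASR and GLP1R themselves, so for these genes their share is no measure of free RNA. ADRA2A was found in 7.97%, 5.59% and 4.90% of CHGA-high cells, against 1.28%, 1.06% and 0.865%, and PTGER3 in 3.03%, 3.29% and 2.91%, against 0.197%, 0.330% and 0.234%. By non-overlapping intervals, CYSLTR2, ADRA2A and PTGER3 had a higher share in CHGA-high than in CHGA-low cells of every library. FFAR1 and CASR did so in HET and WT only. How many of all genes would differ in this way is not given here. At this depth 86.1% of KO, 70.1% of HET and 60.4% of WT CHGA-high cells had no UMI of any of the 6 receptors.

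**Figure D3:**
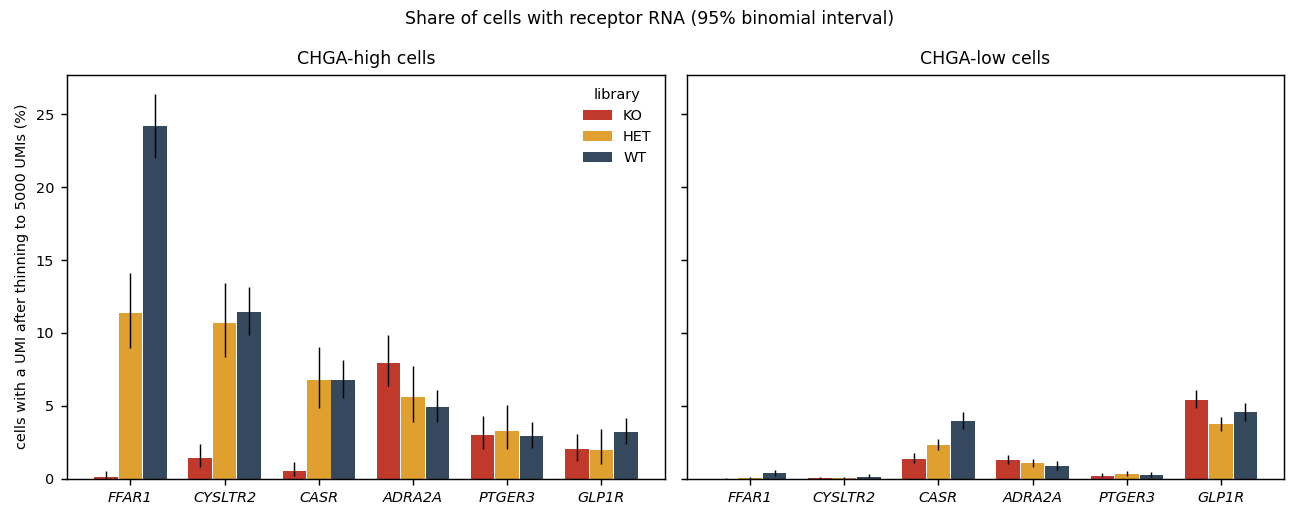
Percentage of cells with at least 1 UMI of each receptor after thinning to 5000 UMIs (vertical axis), in CHGA-high cells (left) and CHGA-low cells (right), with bars for KO, HET and WT and exact binomial intervals. FFAR1 stands at 0.101%, 11.3% and 24.2% in CHGA-high cells, and GLP1R is at a higher share in CHGA-low than in CHGA-high cells of every library.

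In INS with GCG cells the receptors were partly found in the same cells. No KO cell of that class had a UMI of FFAR1, CYSLTR2 or CASR. In HET, 38.2% of 34 cells with FFAR1 also had CYSLTR2, against 23.7% of 76 cells without an FFAR1 UMI at that depth. In WT these shares were 37.3% of 161 cells and 20.3% of 192. CASR was found in 26.5% of HET cells with FFAR1 and 19.7% of those without, and in 14.3% and 14.6% of WT cells. Without thinning, 72 of 114 HET cells and 282 of 382 WT cells of the class had an FFAR1 UMI. Many cells counted as without FFAR1 therefore had it at full depth. The values are descriptions, and cells of a library share their source.

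**Figure D4:**
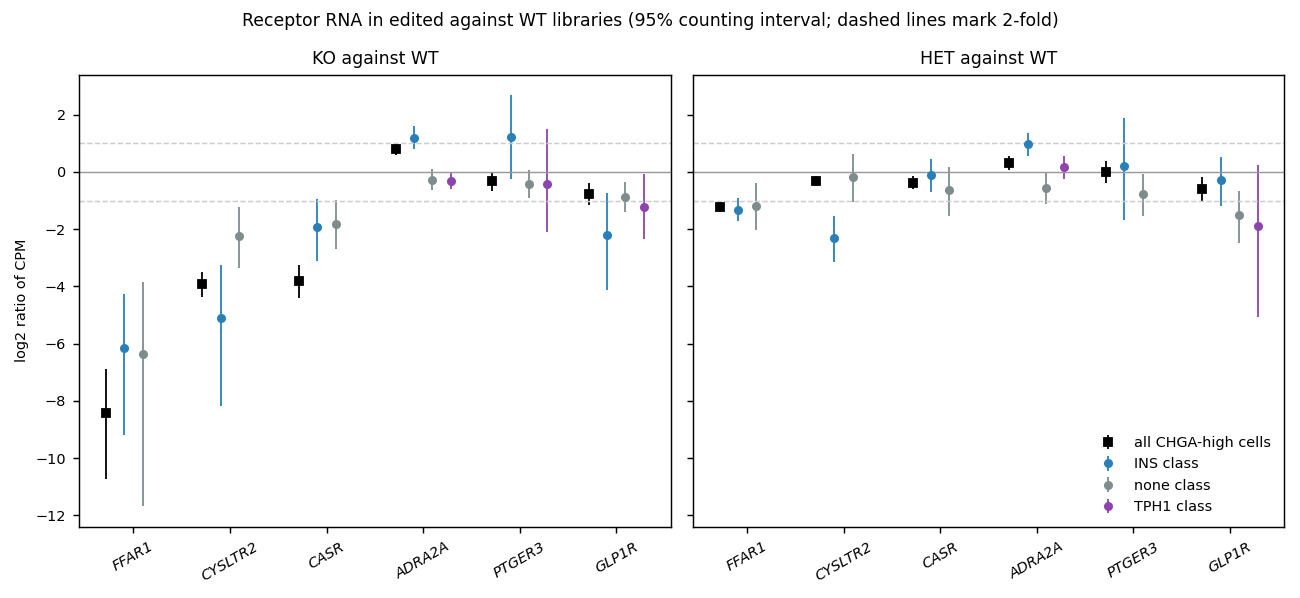
log2 ratio of CPM (vertical axis) for KO against WT (left) and HET against WT (right), per receptor, in all CHGA-high cells (squares) and in the INS, hormone-negative (none) and TPH1 classes (circles), with 95% counting intervals; classes in which the ratio cannot be formed are left out. FFAR1, CYSLTR2 and CASR lie below the lower 2-fold line in KO for all CHGA-high cells at -8.43, -3.92 and -3.80. In the left panel ADRA2A is above 0 in the INS class and below it in the TPH1 class. In the right panel it is above 0 in both, with an interval that spans 0 in the TPH1 class.

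Genes whose level ran most like each receptor were ranked by Pearson correlation of log2(CPM + 1) over 17 class-by-library sums of at least 30 cells, among 9092 genes. The points share libraries and depth, and the values are descriptions. FFAR1 ran closest to SLC30A8, the zinc transporter of insulin granules (r = 0.97), IAPP, which encodes islet amyloid polypeptide (0.96), and NKAIN4 (0.95). CASR also ran closest to SLC30A8 (0.94), then to ELAVL4 and ASPH (0.94 and 0.93). CYSLTR2 ran close to CTSZ and LDB2 (0.95 and 0.94), and ADRA2A closest to ARHGAP24, TPH1 and TWIST1 (0.97, 0.96 and 0.95). TPH1 was itself used to define the TPH1 class, where ADRA2A was highest, so its rank here is no separate result. PTGER3 ran closest to AKAP12 (0.88), and GLP1R had no neighbour above 0.79 (PPFIA3). Among the members themselves, FFAR1 with CASR gave 0.93 and CYSLTR2 with ADRA2A -0.70.

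Other receptors of the islet and gut did not share a direction. Of 38 further nutrient, incretin and hormone receptors, 16 passed the level filter in KO against WT. Among them, 4 were at least 2-fold lower and 4 at least 2-fold higher, with a median log2 ratio of -0.28. Over all 12002 genes tested, 4.53% were at least 2-fold lower and 2.19% at least 2-fold higher. SCTR, the secretin receptor, was 2.74-fold lower, SUCNR1, the succinate receptor, 2.72-fold lower at 15.2 CPM in KO and 41.5 CPM in WT, and LPAR1 2.61-fold lower. GALR1, a galanin receptor, was 4.10-fold higher at 5.16 CPM in KO and 1.26 CPM in WT, TACR1 3.22-fold higher and FFAR4, another receptor for long-chain fatty acids, 2.52-fold higher at 9.84 CPM in KO and 3.90 CPM in WT. FFAR4 thus stood on the other side of WT from FFAR1. Of 24 somatostatin, adrenergic, muscarinic and similar receptors, 7 passed the filter. CHRM3, the muscarinic receptor of beta cells, was 2.38-fold lower and ADRA2C 2.87-fold lower, and GABBR2 2.84-fold higher.

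Downstream of the receptors, the genes past 2-fold went in both directions in the Gs and Gq arms, beside 4.53% lower and 2.19% higher over all genes tested. Of 19 genes of the Gs and cyclic AMP arm that passed the filter, GNAS, the Gs alpha subunit, was 2.42-fold lower in KO than in WT (1619 CPM in KO, 3914 CPM in WT), and PDE8B and RAPGEF4 (EPAC2, a cyclic AMP sensor) were 4.38-fold and 2.62-fold higher. Of 13 genes of the Gq and calcium arm, PRKCA was 2.19-fold lower and PRKCE 2.55-fold higher. Of 16 Gi, Go and RGS genes, RGS3 was 2.49-fold lower. Of 5 eicosanoid synthesis and breakdown genes, HPGD, which degrades prostaglandins, was 2.88-fold lower, and the 1 other eicosanoid receptor that passed was within 2-fold. In HET against WT, 2 of 14 receptors of the first list were 2-fold lower, SCTR by 2.18-fold and SUCNR1 by 2.10-fold, and none higher. Over all 11964 genes tested there, 2.06% were at least 2-fold lower and 1.2% at least 2-fold higher. PDE8B and RAPGEF4 were again higher, by 3.10-fold and 2.22-fold, and RGS3 2.62-fold lower. Between KO and HET, 3 of the 6 members were 2-fold lower and none higher, against 2.03% lower and 1.08% higher of 11847 genes.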

How the data were processed

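The authors deposited raw UMI counts per gene and barcode from Cell Ranger 6.1.2 (per the file headers). GRCh38 and Seurat appear in the submitters' processing notes, and the annotation release is not given in the sources used here. Of 33538 genes, 33456 matched GENCODE 29 by identifier. Kept cells had at least 1000 UMIs, 500 genes and at most 20% mitochondrial UMIs. No doublets were removed, because Scrublet (scanpy 1.11.5, expected rate 8%) called 0 in every library, which means that the caller did not work. Counts were summed per library and class and scaled to CPM with TMM factors from edgeR 4.0.16, used for scaling only. Intervals are exact Poisson, conditional or binomial (Clopper-Pearson) at 95%. A fold needed over 3 counts in 1 library, and 0 was set to 3 counts. Called means at least 2-fold apart and 5 CPM or more in either library. Named genes are the 6 members, up to 3 per list and direction with the largest fold in KO against WT, and the 3 most correlated genes per member, of which 1 is not reported here. The calls were tested on simulated data with planted changes larger than 2-fold and counting error only. That simulation held no variation between libraries, so it does not show how reliable calls near 2-fold are here. The members, classes and lists were chosen with earlier results of these data known. The classes are not the study's own annotation, which may group cells differently.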

Additional observations from a re-analysis of the deposited data

Results flagged for a closer look

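The HET against WT difference of CYSLTR2 ran in opposite directions in 2 classes, at a log2 ratio of 1.89 in the GHRL class and -2.29 in the INS class. The difference between the classes was not tested. The WT value of the GHRL class rests on 3 counts in 27 cells, and with a hormone minimum of 50, or with the top 8% of doublet scores removed, that WT class held 0 CPM.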

How the results depend on the processing

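No paired analysis was possible because each genotype had 1 library. Under the alternatives, 126 counts of genes or members stayed within 1.5 times and 21 did not, and no member ratio past 2-fold over all CHGA-high cells turned sign. In the INS class, ADRA2A in KO against WT was 2.30-fold higher, and 3.35-fold lower without TPH1-positive cells. With at least 50 CPM required, 106 genes were lower and 50 higher in KO against WT, 31 and 20 in HET against WT, and 39 and 12 in KO against HET; 1 member was lower in KO against WT and 0 in KO against HET, since the other members did not reach that level. With 1 UMI in place of 5 CPM, the counts were 1672 and 1276, 885 and 1078, and 1249 and 532. With the CPM of CHGA-low cells subtracted, 1083 genes were higher in KO against WT, 685 lower and 530 higher in HET against WT, and 408 lower and 883 higher in KO against HET; GLP1R then gave no ratio. With classes weighing the same, 0 members were 2-fold lower in HET against WT. With a hormone minimum of 50, 1 member in place of 0 was 2-fold higher in INS with GCG than in hormone-negative KO cells. The causes were not tested beyond these constructions. ADRA2A in HET against WT stood at 0.31 (log2), and at -0.08 in cells of 3000 UMIs or more with up to 10% mitochondrial UMIs. Depth limits the small classes most: 3 counts in the KO class of INS with GCG correspond to 6.43 CPM.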

Other observations

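CHGA-low cells were split by single genes chosen after values were seen, into cells with at least 1 UMI of the gene per 10000 and cells with 0. SOX9 marks pancreatic progenitor and duct cells. Cells with SOX9 held 3.51 times the CASR level of cells without it in KO (2.57 to 4.76), 2.53 times in HET (1.99 to 3.20) and 1.72 times in WT (1.41 to 2.10). Cells with KRT7, a keratin of duct and other epithelia, held 0.0837 times the level of the others in KO, 0.0945 times in HET and 0.193 times in WT, on 3, 3 and 5 counts. GLP1R was higher in cells with GATA4, a transcription factor of foregut endoderm, by 1.31 times in KO (1.12 to 1.54), 1.498 times in HET (1.24 to 1.82) and 1.72 times in WT (1.40 to 2.12). It was also higher in cells with CDX2, a hindgut factor, by 1.35, 1.84 and 1.45 times in KO, HET and WT. Other gut and pancreas factors gave no shared direction for GLP1R, with ratios of 1.01, 1.25 and 0.775 for PDX1 and 1.08, 0.973 and 0.653 for HHEX in KO, HET and WT.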
